A study of Mus musculus with 2 samples.

Results

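Open chromatin around the genes of the AP-1 transcription factors was compared between 1 ATAC-seq library from Dnmt3a-knockout (KO) mast cells and 1 from wild-type (WT) mast cells of the mouse. The genes examined were Fos, Fosb, Fosl2, Jun, Junb, Jund, Batf, Atf3, Bach1 and Bach2. A peak belonged to one of these 10 genes when that gene was the nearest protein-coding gene interval on mm10 and lay within 100 kb, an overlap counting as distance 0. This gave 32 of 19684 KO peaks and 30 of 17170 WT peaks. Peaks that overlapped by at least 1 bp were merged, which left 39 regions of 23364 in all, and none of the 39 was equally near to another protein-coding gene.

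AP-1 factors are dimers of basic leucine zipper (bZIP) proteins. FOS proteins pair with JUN proteins and bind the AP-1 site, searched below by the pattern TGANTCA. Other pairings bind the related cyclic AMP response element (CRE) TGACGTCA. In mast cells, crosslinking of IgE receptors activates MAP kinases, which induce Fos and Jun transcription within minutes and phosphorylate their products, and AP-1 sites serve many cytokine genes. BATF and ATF3 also pair with JUN proteins, and BACH1 and BACH2 pair with small MAF proteins and are mainly repressors.

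The KO library came from mast cells of Dnmt3a-deleted mice, and the WT library from those of their wild-type littermates. Dnmt3a encodes a de novo DNA methyltransferase. The allele, any Cre driver and the number of animals per library were not stated in the sources used here. Per the labels, the donors were females, aged 3 weeks in the design text and 3 to 4 weeks in the growth protocol. In both genotypes, marrow cells were grown for 4 weeks in interleukin 3 until over 95% carried Kit and the IgE receptor, with no further stimulus. In ATAC-seq, the Tn5 transposase cuts and tags accessible DNA, and peaks mark stretches with many tagged fragments. The study asked how loss of Dnmt3a relates to mast cell inflammatory responses. With 1 library per genotype, differences could not be set against a spread between animals and no test was made. Intervals of shares (exact binomial, 95%) cover counting error only, and those of medians (95%, from ranked values) cover only the spread between regions. Both treat regions as independent, although several share a gene, and neither covers a spread between animals.

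The labelled cell type was checked against fixed marker genes. Of all protein-coding genes, 49.5% had a KO peak and 46.1% a WT peak by the same assignment. Of 12 mast cell genes, 12 had a KO region and 10 a WT region, Hdc and Slc18a2 being the ones without a WT region. Of 7 neutrophil genes, 2 had a KO region and 2 a WT region. The numbers were 2 and 3 of 5 for macrophage and monocyte genes, 1 and 0 of 4 for B cell genes, 2 and 2 of 4 for T cell genes, 3 and 2 of 4 for erythroid genes and 1 and 2 of 3 for basophil genes. Several of these short lists are near the share of all genes. The deleted gene itself, Dnmt3a (chromosome 12, 3801559 to 3914443), held 5 KO and 6 WT peaks, with 4 shared regions. The lists carry no read totals. The summit pileup, the number of overlapping fragments at a peak's highest point, had a median of 9 in both whole lists.

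Peaks at the start sites of AP-1 genes are shown first, because 2 of the 10 genes differed there between the lists. RefSeq promoter windows run from 250 bases before to 50 after the annotated start and were found for all 10 genes (GRCm38.p6, the assembly mm10 names). Peaks of both libraries lay in the windows of Jun, Junb and Bach1. WT peaks alone lay in those of Fos and Atf3, and in no case did a KO peak lie there alone. The other 5 windows held no peak. Over 21044 windows of protein-coding genes, 24.9% had peaks in both lists, 5.08% a KO peak only and 3.23% a WT peak only. The 5 windows with a peak are printed below from 5′ to 3′ on the gene's strand. Capitals mark each match, on either strand, to 1 of 5 motifs. The AP-1 site was searched as TGANTCA and the CRE as TGACGTCA. A looser CRE left 1 base free, as TGACNTCA, and a shorter one, TGACGT, lacked the last 2 letters, so that every CRE also matches these. The last motif was the TATA box, TATAAA.
Fos, plus strand, chr12:85473640-85473939: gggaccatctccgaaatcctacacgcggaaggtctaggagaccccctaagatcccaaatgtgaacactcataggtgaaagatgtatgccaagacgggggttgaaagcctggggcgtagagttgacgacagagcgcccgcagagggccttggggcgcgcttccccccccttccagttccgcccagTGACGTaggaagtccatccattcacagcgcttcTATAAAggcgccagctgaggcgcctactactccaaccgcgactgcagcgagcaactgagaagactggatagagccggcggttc
Atf3, minus strand, chr1:191183284-191183583: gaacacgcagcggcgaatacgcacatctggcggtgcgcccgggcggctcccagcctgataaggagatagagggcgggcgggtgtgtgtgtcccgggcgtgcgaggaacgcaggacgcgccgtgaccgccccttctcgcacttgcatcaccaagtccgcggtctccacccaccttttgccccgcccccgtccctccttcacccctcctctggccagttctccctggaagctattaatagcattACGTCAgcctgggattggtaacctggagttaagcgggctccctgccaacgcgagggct
Jun, minus strand, chr4:95052173-95052472: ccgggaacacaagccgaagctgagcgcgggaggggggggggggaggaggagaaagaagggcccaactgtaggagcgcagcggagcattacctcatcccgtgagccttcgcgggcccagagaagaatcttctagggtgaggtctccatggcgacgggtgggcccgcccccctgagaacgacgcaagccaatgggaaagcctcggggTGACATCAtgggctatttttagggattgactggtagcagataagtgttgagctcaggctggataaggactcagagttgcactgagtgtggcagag
Junb, minus strand, chr8:84978699-84978998: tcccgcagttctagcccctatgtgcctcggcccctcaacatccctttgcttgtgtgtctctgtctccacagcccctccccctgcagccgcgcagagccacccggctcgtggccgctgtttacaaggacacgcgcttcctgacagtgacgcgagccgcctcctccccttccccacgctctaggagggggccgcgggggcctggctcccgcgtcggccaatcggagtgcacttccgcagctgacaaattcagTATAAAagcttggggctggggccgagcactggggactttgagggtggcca
Bach1, plus strand, chr16:87698704-87699003: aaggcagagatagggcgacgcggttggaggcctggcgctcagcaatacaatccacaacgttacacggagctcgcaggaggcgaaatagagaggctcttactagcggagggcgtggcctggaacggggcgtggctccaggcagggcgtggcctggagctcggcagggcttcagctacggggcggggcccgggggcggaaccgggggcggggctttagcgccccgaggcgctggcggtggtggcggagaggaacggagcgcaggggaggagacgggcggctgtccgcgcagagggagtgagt

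In the Fos window the KO list had no peak, and the WT peak covered 111 bases around both marked elements. Its summit lay 13 bp from the middle of TGACGT (bases -66 to -61, the annotated start being base 0) and 20 bp from that of TATAAA. In the Jun window, TGACATCA at bases -45 to -38 lay within 4 bp of the KO summit and 1 bp of the WT summit. This element corresponds in sequence to a site known to be bound by JUN and ATF2 dimers. In the Junb window, TATAAA began at the annotated start and lay inside the peaks of both libraries. The Atf3 window held ACGTCA, the reverse complement of TGACGT, at bases -8 to -3, and the WT peak, upstream of it, did not cover it. The Bach1 window held none of the 5 motifs. Over 32851 RefSeq windows, 7.81% held TGANTCA, 1.79% TGACGTCA, 8.83% TGACNTCA, 7.51% TGACGT and 13.6% TATAAA. This set is wider than the 21044 windows of protein-coding genes used above for the peak shares. Of the 10 AP-1 windows, 0 held TGANTCA or TGACGTCA, 1 held TGACNTCA, 3 held TGACGT (Fos, Atf3 and Batf) and 2 held TATAAA. The motifs were chosen after the AP-1 windows were read, so these counts cannot be read as an excess over the shares. The matches describe the printed letters and not binding. The 10 windows had a median of 20.5 CpG dinucleotides, the bases that DNA methyltransferases modify, with counts from 3 in Jund to 32 in Fosl2. The median was 7 over the 32851 RefSeq windows, again the wider set and not protein-coding genes alone. Windows without a peak in either list included those of Fosl2 (32 CpGs) and Fosb (25) as well as that of Jund. Shared regions lay outside these windows, 490 bp upstream of Fosl2 and inside Fosb and Jund. An empty window therefore does not describe the whole surroundings of a gene start. Methylation was not measured.

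Of the 39 regions, 20 (51.3%, interval 34.8 to 67.6) were shared, 11 (28.2%, 15.0 to 44.9) were KO-only and 8 (20.5%, 9.30 to 36.5) were WT-only. Over all regions within 100 kb of a protein-coding gene, 55.3% were shared, 28.0% KO-only and 16.8% WT-only, so that each share at AP-1 genes was near its background. All 10 genes had a peak in each list, against 49.5% (KO) and 46.1% (WT) of protein-coding genes. The 10 were chosen with earlier results of these data known, so this count cannot be read as an excess. Fosl1 and Batf2, counted below among other bZIP genes, had no region. All 10 had at least 1 shared region, 7 had a KO-only region and 5 a WT-only region. Among all genes with a region, 75.5% had a shared, 40.0% a KO-only and 27.5% a WT-only region, but AP-1 genes held more regions each (median 3.5 against 1), which raises such shares. Junb and Jund had shared regions only. The excess of KO-only over WT-only regions depended on the setting. KO-only against WT-only regions numbered 7 against 10 when both lists were cut to the same length, 8 against 9 when both lists were limited to a −log10 q of 5 or more, and 7 against 8 with that limit on unshared regions alone. The counts were equal with genes of all types (6 and 6) and over gene bodies with 10 kb (7 and 7). The excess stayed at 4 against 1 with a −log10 q limit of 10 and at 10 against 8 within 50 kb. With peaks less than 200 bp apart joined, it was 8 against 7. Counted peak by peak, the numbers were 10 against 8 by summits within 200 bp and 17 against 15 by a reciprocal overlap of 50%. Leaving out ties changed nothing, as no region was tied. The KO-only and WT-only shares over all regions are not given for these settings. The shifts therefore cannot be read as particular to AP-1 genes.

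**Figure D1:**
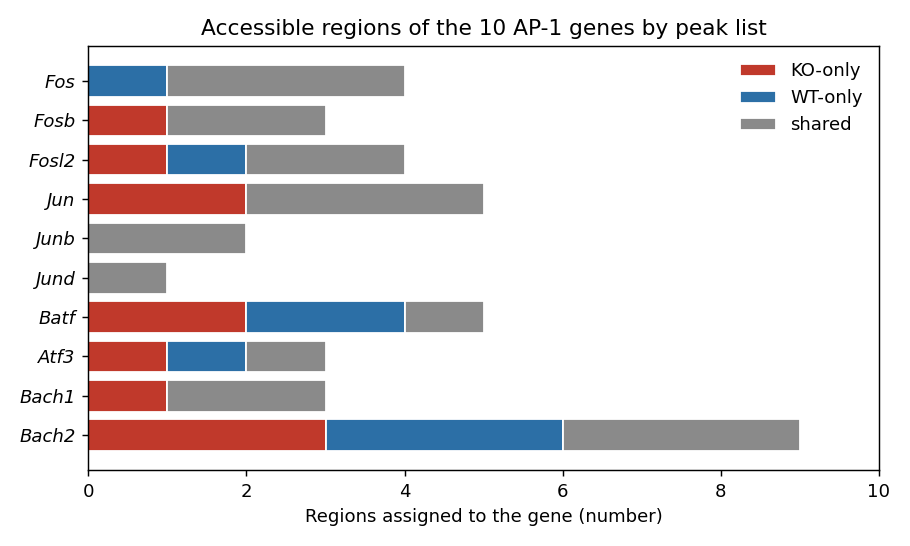
Number of regions assigned to each AP-1 gene (x axis), stacked as KO-only (red), WT-only (blue) and shared (grey), with 1 library per genotype. Bach2 had 9 regions, 3 of each kind, while Junb and Jund had only shared regions.

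Fos encodes the immediate early partner of JUN. It had 4 regions, 3 of them shared and 1, at its start, WT-only. The strongest peak of any AP-1 gene in either list by −log10 q lay 18.3 kb upstream of Fos (chromosome 12, 85455234 to 85455552). There the KO peak had a summit pileup of 22, a width of 309 bp and a −log10 q of 23.5, and the WT peak a pileup of 26, a width of 300 bp and a −log10 q of 29.0. The q values are the authors' and rank peaks within their own list, where the KO peak was as strong as or stronger than 93.4% of peaks and the WT peak 98.6%. The summits lay 17 bp apart. Both libraries held this site at nearly the same place and width. The WT peak over the Fos start (85473809 to 85473919) had a pileup of 9, a width of 111 bp and a −log10 q of 7.48, at the 40.9 percentile of its list. The nearest KO peak was 12115 bp away. A site missing from a list was not called there, which does not show that it was closed. Downstream, 8.76 kb beyond the gene, the KO peak was 185 bp and the WT peak 115 bp wide, with pileups of 7 and 8. The farthest region, 47.9 kb upstream, held 1 weak KO peak (pileup 4) and 2 weak WT peaks (5 and 6).

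Fosb encodes a FOS relative that is likewise induced early. It had 2 shared regions and 1 KO-only region. Inside the gene (chromosome 7, 19308649 to 19308769) the KO peak had a pileup of 9 and a width of 106 bp, and the WT peak 10 and 121 bp. At 6.46 kb upstream the KO peak was 210 bp wide with a pileup of 10 and a −log10 q of 8.60, and the WT peak 100 bp with a pileup of 6 and a −log10 q of 3.41. The WT peak there ranked among the weakest of its list (percentile 1.02), and the KO peak near the middle of its own (48.0). The KO-only region, 9.95 kb upstream, was as weak in its list (pileup 6, percentile 1.38).

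Fosl2 encodes FRA-2, a FOS family member without the strong activation domain of FOS. No region overlapped its gene interval. The main site lay 490 bp upstream of the gene (chromosome 5, 32135491 to 32135982), with a KO peak of 400 bp and pileup 21 and a WT peak of 322 bp and pileup 25. Their summits lay 6 bp apart, outside the RefSeq promoter window. The shared region 34.3 kb downstream had a KO peak of pileup 12 and a WT peak of pileup 8. At 23.9 and 23.8 kb upstream, a KO-only peak (32112448 to 32112547, pileup 6) and a WT-only peak (32112566 to 32112692, pileup 7) were separated by 18 bp. They count as 2 unshared regions by the overlap rule and would be 1 shared region if peaks less than 200 bp apart were joined.

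The JUN genes encode the usual partners of FOS proteins. Jun, the early induced member, had 5 regions, all at or upstream of its start. The promoter region (chromosome 4, 95052127 to 95052617) held 1 KO peak, 390 bp wide with a pileup of 31 and a −log10 q of 22.7. In the WT list the same stretch was covered by 2 peaks of 324 and 113 bp, with pileups of 26 and 13. The summits, the KO one and the stronger WT one, lay 37 and 40 bp upstream of the start. The 2 shared upstream regions had equal pileups in both libraries, 8 and 8 at 10.5 kb and 9 and 9 at 53.8 kb, and were wider in the KO list (295 against 208 bp and 173 against 141 bp). The 2 KO-only regions lay beside shared ones. The first, 990 bp upstream (95053212 to 95053401), had a pileup of 17, a width of 190 bp and a −log10 q of 8.14, and was 594 bp from the nearest WT peak. The second, 54.2 kb upstream, was 100 bp wide with a pileup of 7, and 187 bp from a WT peak.

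Junb, whose product has activating and inhibitory roles among AP-1 dimers, had 2 shared regions and no other. At its start (chromosome 8, 84978699 to 84978903) the KO peak was 205 bp wide with a pileup of 18, and the WT peak 100 bp wide with a pileup of 16. At 1.19 kb upstream (84979941 to 84980166) the KO peak was 226 bp wide with a pileup of 18, and the WT peak 100 bp with a pileup of 15. Both WT peaks had the shortest width that either list contains, 100 bp. The local background, the fragment depth expected there by the peak caller, was 2.11 and 2.06 in the KO list and 2.33 and 2.21 in the WT list at these sites, far above the list medians of 0.270 and 0.280. Jund, the JUN gene that resting cells express most steadily, had 1 region, inside the gene (70698671 to 70699021). Its KO peak was 351 bp wide with a pileup of 20, and its WT peak 229 bp wide with a pileup of 21. The summits lay 26 bp apart and over 1.1 kb past the start of the RefSeq window used here.

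Batf encodes a bZIP protein that pairs with JUN proteins and works with IRF4 in lymphocytes. It had 5 regions, of which only 1 was shared. That one lay inside the gene (chromosome 12, 85705625 to 85705780), with a width of 127 bp in both lists, pileups of 9 (KO) and 8 (WT) and summits 4 bp apart. The KO list had a further and stronger peak next to it (85705349 to 85705609), 261 bp wide with a pileup of 12 and a −log10 q of 10.5. It ended 15 bp before the WT peak began. Upstream, 1 KO-only region at 12.6 kb and 2 WT-only regions at 16.4 and 6.62 kb were all 100 bp wide with pileups of 6, 6 and 5. The nearest peak of the other list was over 3 kb away in each case.

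Atf3 encodes a stress-induced repressor of the ATF group. Its 3 regions all lay upstream, 1 of each kind. The WT-only region was the promoter peak (chromosome 1, 191183445 to 191183544), with a pileup of 7, a width of 100 bp and a −log10 q of 5.54, at percentile 17.7 of its list. The KO-only region, 10.6 kb upstream, was the nearest KO peak to that site and had a pileup of 4 and a width of 100 bp. The shared region, 41.0 kb upstream, had a KO peak of 119 bp and pileup 8 and a WT peak of 100 bp and pileup 7. These 4 peaks were below the list medians in pileup, and only the WT-only one was within 1 kb of the gene.

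Bach1 encodes a haem-regulated repressor of antioxidant genes. Its promoter was open in both libraries (chromosome 16, 87698714 to 87699024), with a KO peak of 311 bp and pileup 20 and a WT peak of 262 bp and pileup 19. A shared region inside the gene had a KO peak of 101 bp and pileup 8 and a WT peak of 171 bp and pileup 9. A KO-only region lay 43.7 kb upstream, with a pileup of 7 and no WT peak within 43 kb.

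Bach2, best known as a repressor that keeps B and T cells from terminal differentiation, had the most regions. Its interval (chromosome 4, 32238413 to 32586109) is 348 kb long and held all 9 of them, 3 shared, 3 KO-only and 3 WT-only. They spanned 130 kb of its upstream part, and the last 198 kb of the gene had none. All 9 lay upstream of the start site in the RefSeq promoter table, with midpoints from -159 to -29.3 kb, and downstream of the interval's own start, which includes longer transcripts. The first 2 shared regions had KO peaks of pileup 13 and 10 and WT peaks of 7 and 10. At the first (32268121 to 32268308) the −log10 q was 16.2 in the KO list (percentile 81.8) and 8.24 in the WT list (percentile 48.3). At the third shared region, 1 WT peak of 180 bp covered the place of 2 KO peaks of 103 and 110 bp, the reverse of the split at Jun. By −log10 q, the strongest unshared peak of any AP-1 gene was a KO-only one here (32307365 to 32307536), with a −log10 q of 14.7, a pileup of 14 and a width of 172 bp. A WT-only peak lay 2063 bp from it (32309600 to 32309699, pileup 7). By pileup, the KO-only peak 990 bp upstream of Jun was higher (17). The remaining unshared Bach2 peaks had pileups of 6 and 4 (KO) and 5 and 7 (WT).

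**Figure D2:**
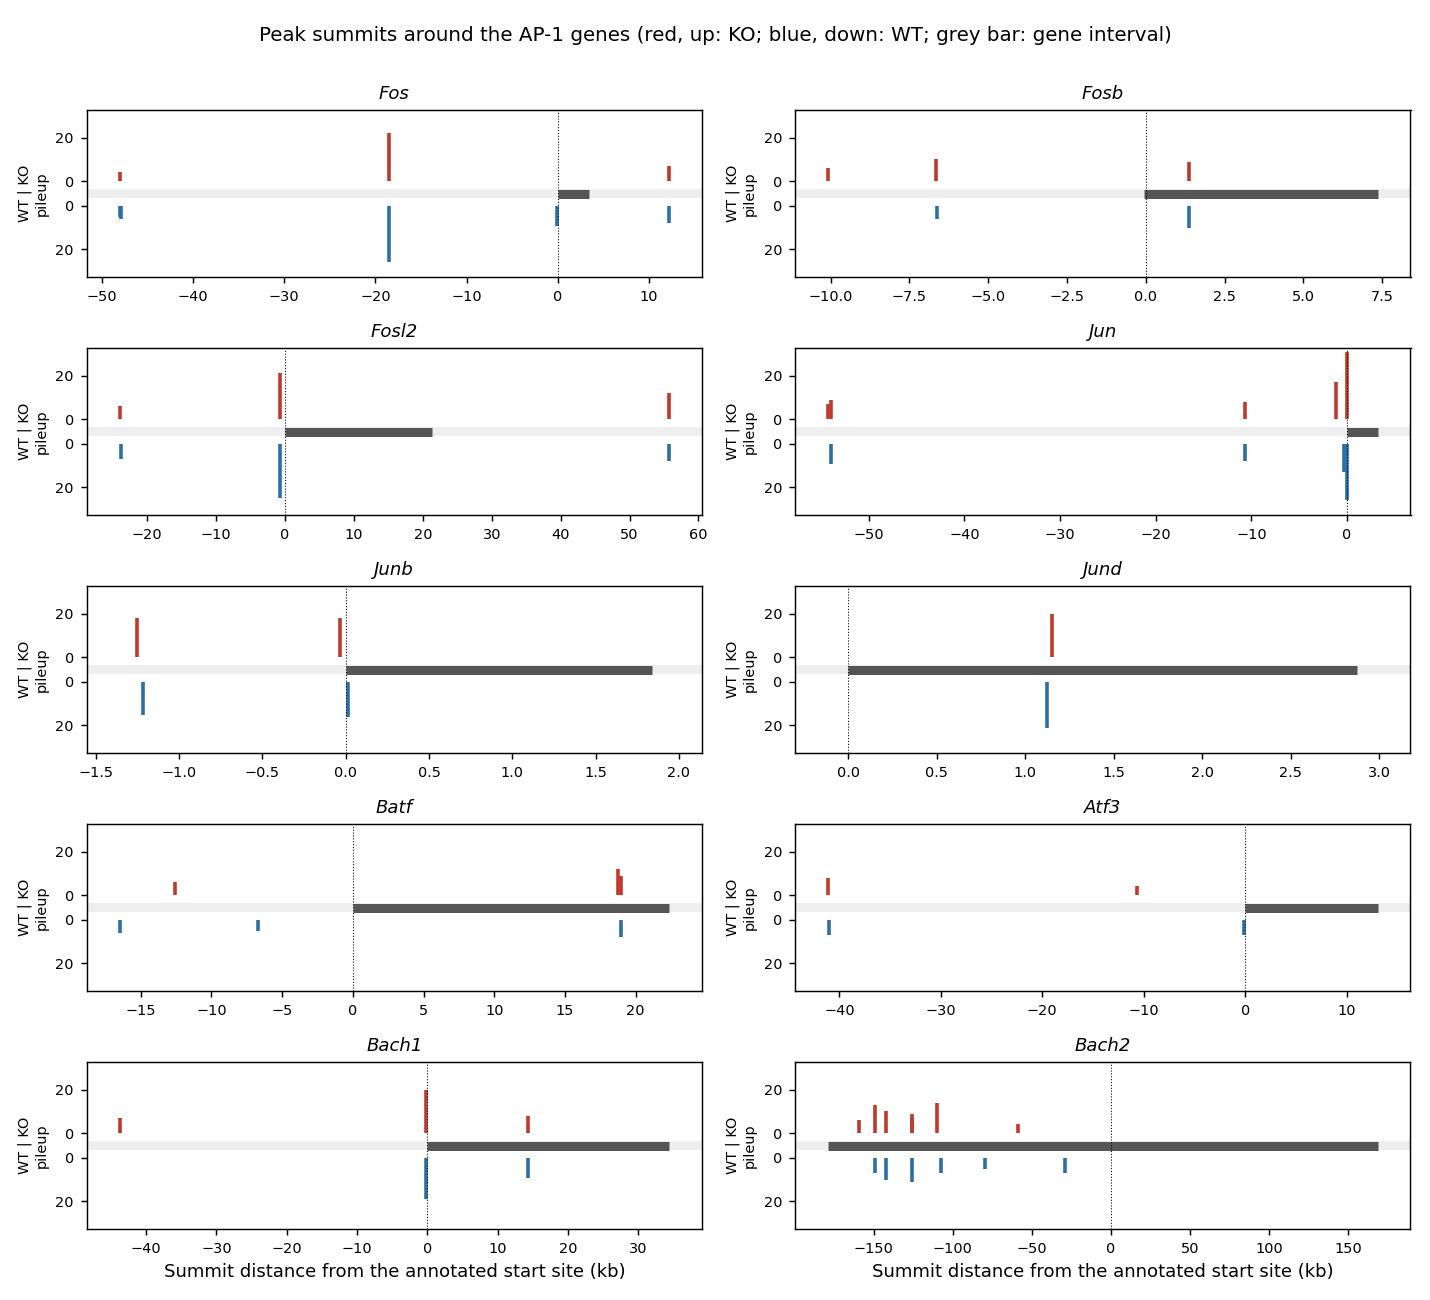
Peak summits at the 10 AP-1 genes by distance from the annotated start site in kb, upstream to the left, with KO peaks drawn upwards in red and WT peaks downwards in blue. Line length is the summit pileup in fragments and the dark bar is the gene interval. The tallest lines stand near the starts of Jun and Fosl2 and 18.3 kb upstream of Fos, in both libraries.

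Shared and unshared AP-1 peaks overlapped widely in strength, and differed in their medians. Shared AP-1 peaks had a median pileup of 10 (21 KO peaks) and 9.5 (22 WT peaks), and unshared ones 6 (11 KO peaks) and 7 (8 WT peaks). Pileups ran from 4 to 31 in shared and 4 to 17 in unshared KO peaks, and from 5 to 26 in shared and 5 to 9 in unshared WT peaks. Unshared KO peaks reached a −log10 q of 14.7, and unshared WT peaks 7.48. The median width of unshared peaks was 100 bp in both lists. Some unshared regions lay beside a peak of the other list, at under 200 bp for 3 of 11 KO-only and 1 of 8 WT-only regions, against 7.90% and 12.9% over all such regions.

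Among shared AP-1 regions with 1 peak of each library, the KO peak was mostly wider. Shared regions with 2 peaks in 1 list are left out of this comparison. At the Jun promoter the widths were 390 bp (KO) and 324 and 113 bp (WT). They were 100 (KO) and 100 and 111 bp (WT) at Fos, and 103 and 110 (KO) and 180 bp (WT) at Bach2. In the 17 regions that held 1 peak of each library, the KO peak was wider in 14 (82.4%, interval 56.6 to 96.2), the WT peak in 2 and neither in 1. Over all 12299 such regions the KO peak was wider in 56.7% and the WT peak in 40.7%. The median KO peak was 185 bp and the median WT peak 141 bp wide, against 186 and 173 bp over all such regions. The KO minus WT difference had a median of 42 bp (interval of the median 9 to 87), with a range from -70 bp at Bach1 to 126 bp at Junb. Over all such regions the median was 9 bp and the middle range -21 to 43 bp. The intervals for the 17 regions do not measure a difference between genotypes, as each genotype had 1 library. The KO pileup was higher in 8 of the 17 regions, the WT pileup in 6 and neither in 3, against 54.8% and 32.6% over all regions. Of the 14 regions with a wider KO peak, 7 had a higher KO pileup and 7 an equal or lower one. The shortest width, 100 bp, was that of 0 KO peaks and 4 WT peaks among the 17. It was that of 15.3% of KO and 15.9% of WT peaks in the whole lists, which, unlike the 17 regions, also hold unshared peaks. Read depth and the extent of enrichment also shape peak width, and their part was not tested.

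**Figure D3:**
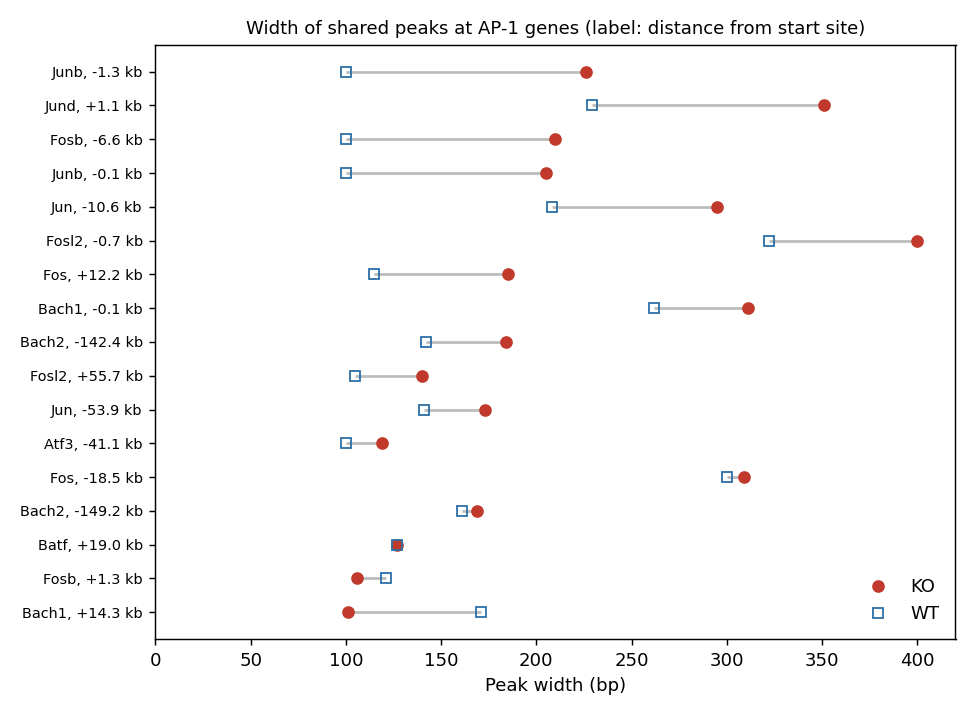
Width in bp of the KO peak (red circle) and the WT peak (blue square) in the 17 shared regions with 1 peak of each library, ordered by their difference and labelled by gene and distance from the start site. The circle lies to the right of the square in 14 regions, and the widest gap, 126 bp, is at Junb.

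Summit positions were close. The KO and WT summits of the 17 regions lay a median of 40 bp apart (interval of the median 17 to 49, range 4 to 62), against 28 bp over all shared regions. They were within 50 bp in 15 of 17 (88.2%, interval 63.6 to 98.5), against 74.8% over all. The exceptions were the upstream Atf3 region (60 bp) and a Bach2 region (62 bp).

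**Figure D4:**
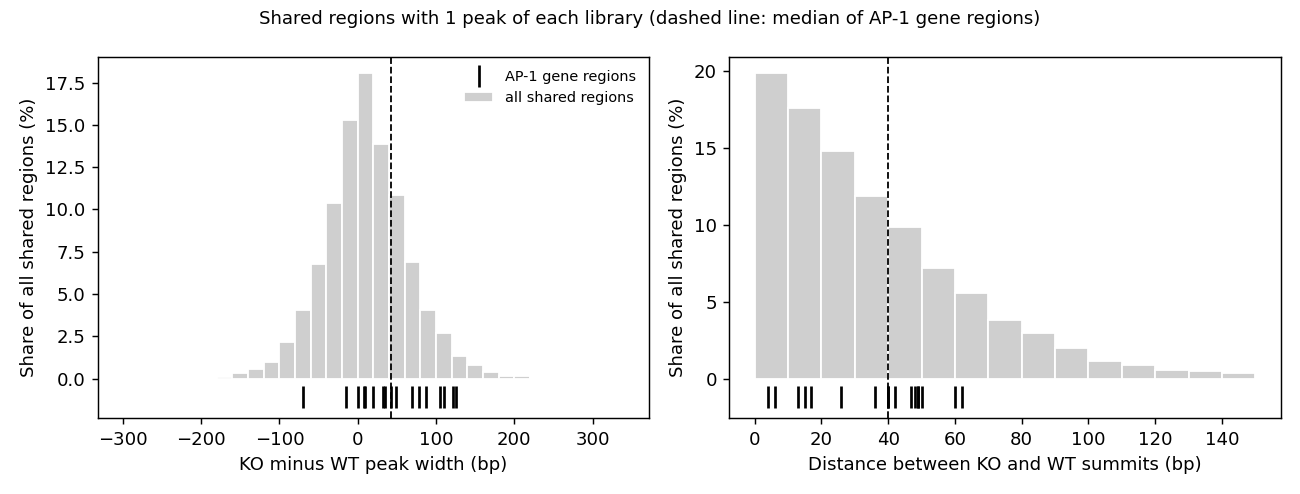
Distribution of the KO minus WT peak width (left, bp) and of the distance between KO and WT summits (right, bp) over 12299 shared regions (grey bars, percent; 119 distances beyond 150 bp are not drawn), with black ticks for the 17 AP-1 regions. Their medians (dashed lines) are 42 bp and 40 bp.

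Of the 39, 18 (46.2%, interval 30.1 to 62.8) overlapped the gene, against 71.2% over all regions within 100 kb, and 13 (33.3%, 19.1 to 50.2) lay over 10 kb from it, against 14.7%. Of these 18, Bach2 held 9. Of the 21 regions outside the gene, 19 lay upstream and 2 downstream, both of these shared, whereas 60.5% of all regions beside a gene lay upstream. Over 10 kb away were 5 of 11 KO-only and 2 of 8 WT-only regions, against 17.4% and 17.7% of all such regions, and overlapping the gene were 4 and 4, against 67.0% and 66.4%. For 13 of the 39, a gene of another type was nearer. Both distal Fos regions overlapped long noncoding RNA genes (Gm29709 and Gm38543), all 4 upstream Jun regions outside the promoter overlapped Junos, and the distal Atf3 region overlapped D730003I15Rik. Nearness does not show which gene a region serves.

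Other bZIP genes had mostly shared regions. Of 27 genes, 22 had a KO region and 20 a WT region, where 49.5% and 46.1% of protein-coding genes had a KO or a WT peak. Their 53 regions were 38 shared (71.7%, interval 57.7 to 83.2), 12 KO-only (22.6%) and 3 WT-only (5.66%), against 55.3%, 28.0% and 16.8% over all regions within 100 kb of a gene. Maf, Nfe2l2 and Jdp2 had the most regions. Maf, a large MAF factor, had 3 shared, 3 KO-only and 1 WT-only region. Nfe2l2, which encodes the antioxidant regulator NRF2, had 4 shared and 1 of each other kind, and Jdp2, a JUN-dimerizing repressor near Batf, had 3 and 1 of each. Genes without a region included Fosl1, Batf2, Maff and Mafg, whereas Mafk, a small MAF partner of BACH proteins, had 2 shared regions.

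Genes acting upstream of AP-1, the MAP kinase cascades and the SRF and ELK factors that drive Fos transcription, had 62 regions at 23 of 24 genes (22 with a KO and 22 with a WT region). Of these regions 32 were shared (51.6%, interval 38.6 to 64.5), 23 KO-only (37.1%) and 7 WT-only (11.3%), against backgrounds of 55.3%, 28.0% and 16.8%. Mrtfa, an SRF coactivator gene, had 4 shared and 3 KO-only regions, all 3 overlapping the gene. Mapk14, the p38 alpha gene, had 1 shared and 3 KO-only regions, Map2k4, a JNK kinase gene, 2 and 3, and Elk3 1 and 2, and none of these 4 genes had a WT-only region. Map3k1 had 2 shared, 1 KO-only and 2 WT-only regions. In these lists of other bZIP and upstream genes, 0 genes had 2 or more WT-only regions in excess of their KO-only regions. KO-only regions were also the more frequent over all regions (28.0% against 16.8%). The share of all genes with an excess in either direction is not given, so this direction cannot be read as particular to these genes. Both lists were chosen with earlier results of these data known.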

How the data were processed

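ATAC-seq libraries of 1 KO and 1 WT culture were read from 1 end over 50 bases, at a target of 10 M reads each according to the labels' protocols. The tools named in the submitters' processing notes are MACS2, Bowtie2 and Trimmomatic, and the builds GRCm38 and mm10. Versions, parameters and any Tn5 shift, which would move peak edges slightly, were not stated in the sources used here. The authors deposited 1 peak list per library, with a fold enrichment ratio at the summit, a −log10 p-value, a −log10 q-value, and a score equal to 10 times the −log10 q-value, rounded down, in 100% of peaks.

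Summit pileup and local background were solved from the deposited fold, read as pileup over background with a pseudocount of 1, and the Poisson p. This gave whole pileups in 100% of peaks (tolerance 0.001 in −log10 p). Coordinates are 1-based. The gene table (GRCm38.p6) has 21627 protein-coding genes on the chromosomes with peaks. Strand came from the RefSeq promoter windows. Python 3.11.15, NumPy 2.4.6, pandas 2.3.3, SciPy 1.17.1 and Matplotlib 3.10.9 were used, and the steps were tested on simulated data. With 1 library per genotype no test was made. Members and gene lists were chosen with earlier results of these data known, and the motifs after the windows were read. All 10 AP-1 genes are named. Of other genes, those with KO-only minus WT-only regions of at least 2 in either direction, the 3 with most regions per list, and any others named beside a count are given, the last chosen after their values were seen. Some genes of these lists are not reported here by name. Alternatives were limits on −log10 q, equal numbers of peaks, other overlap and joining rules, and other gene assignments.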

Additional observations from a re-analysis of the deposited data

How the results depend on the processing

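No paired analysis was possible because there was a single KO and a single WT library. Of 63 alternative values, 48 stayed within the limit (1.5 times a count, or the interval of a share or median), among them every width and summit median. The 48 include the values with ties left out, which could not move because no AP-1 region was tied. The limit for the width median was wide, from 9 to 87 bp. The cause of the others was not tested, except that stricter limits and narrower assignment leave fewer peaks. When both lists were limited to a −log10 q of 10 or more, AP-1 genes had 10 KO and 7 WT peaks, in 6 shared, 4 KO-only and 1 WT-only region. Some of these unshared regions were shared by the main rule, the peak of the other list being below the limit. KO-only regions numbered 7 with equal numbers of peaks, 7 over gene bodies with 10 kb, 6 with genes of all types and 7 with a −log10 q of at least 5 on one side. With genes of all types there were 21 KO peaks. Requiring a reciprocal overlap of 50%, counted peak by peak, gave 17 KO-only and 15 WT-only peaks. It also lowered the shared share to 50.0% for the other bZIP and upstream genes (60.9% by the main rule) and to 45.3% over all regions (55.1%), which equal numbers of peaks moved to 56.1%. Pileups of 4 to 9 fragments lie behind most unshared AP-1 peaks, so presence or absence there rests on few fragments.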
